A study of Caenorhabditis elegans with 2 samples.

Results

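The respiratory chain and the ATP synthase of mitochondria were examined as sites of T20F7.1, a protein described in the worm annotation as carrying a C2H2-type zinc finger domain. Members were the nuclear protein-coding genes of Caenorhabditis elegans whose annotated name begins with nuo-, ndu, sdh, cyc-, ucr-, cox-, cco-, atp-, asb- or asg-, together with gas-1, mev-1, isp-1 and lpd-5. This gave 71 of 19973 genes, by a rule that uses names alone. By name, 33 belong to complex I, 5 to complex II, 7 to complex III, 2 encode cytochrome c, 7 belong to complex IV, 8 act in complex IV assembly and 9 encode ATP synthase subunits. Chromatin was immunoprecipitated with an anti-GFP antibody from strain OP754, which carries wgIs754, a transgene with T20F7.1 joined to TY1, EGFP and 3xFLAG tags and with unc-119(+), in the mutant unc-119 (tm4063), so the tagged protein came from a transgene and not from an edited locus. Larvae of both sexes were pooled at the L4 stage, 48 hours of age, after a synchronising arrest as starved L1 larvae, and whole animals were used, so no site can be assigned to a tissue. There was 1 group with 2 biological replicates, and no input or untagged immunoprecipitation was analysed here.

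Electrons from NADH enter the chain at complex I and those from succinate at complex II, and both pass through ubiquinone to complex III. Cytochrome c carries them on to complex IV, which reduces oxygen. Complexes I, III and IV pump protons, and the ATP synthase uses the resulting gradient to make ATP. Apart from the few subunits made in the mitochondrion itself, all parts are encoded in the nucleus and imported. In worms, mutations of gas-1, mev-1, isp-1 and clk-1 are textbook cases in which respiration and lifespan change.

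The results are given as the authors' signal value, the height of a region in their peak lists, whose scale is not given in the sources used here. The irreproducible discovery rate (IDR) procedure compares the ranks of regions between replicates. The list that the authors kept by it held 2586 peaks, and each replicate had 30000 candidate regions. A gene had a promoter peak where a summit lay from 500 bp upstream to 100 bp downstream of its annotated start. The signal value in the IDR list is that of the pooled replicates and stands near the sum of the replicate values. Every member with an IDR promoter peak held the same rank in the IDR list as in the candidate list of the pooled replicates. No region was identical in both replicates.

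Summit sequences are shown for 8 members, to let the words shared by strong peaks be read beside strong peaks that lack them. Each window spans 50 bp on both sides of the summit, is read 5′ to 3′ on the strand of the named gene from the WBcel235 genome, and is in lower case except for the 6-base words, GACACTCCG and GAGACGCAG, which are described further on. They read the plus strand for asb-2, nuo-1, cox-10, cox-6C and ndub-8 and the minus strand for the others. The windows are chrX:4469446-4469546 for asb-2, chrII:11097504-11097604 for nuo-1, chrV:13625779-13625879 for nduv-2, chrIV:9525322-9525422 for the upstream peak of ndua-5, chrII:11050049-11050149 for sdhd-1, chrII:12679791-12679891 for cox-10, chrIV:126337-126437 for cox-6C and chrII:13872626-13872726 for ndub-8.
asb-2: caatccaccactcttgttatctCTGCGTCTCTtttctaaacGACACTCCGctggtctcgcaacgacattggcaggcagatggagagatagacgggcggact
nuo-1: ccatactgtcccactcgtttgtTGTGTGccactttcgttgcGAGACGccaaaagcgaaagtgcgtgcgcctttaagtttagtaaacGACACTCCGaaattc
nduv-2: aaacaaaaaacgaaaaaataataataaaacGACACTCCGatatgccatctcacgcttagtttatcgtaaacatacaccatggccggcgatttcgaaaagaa
ndua-5: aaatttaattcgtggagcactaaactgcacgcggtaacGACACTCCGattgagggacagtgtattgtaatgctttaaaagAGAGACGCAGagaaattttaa
sdhd-1: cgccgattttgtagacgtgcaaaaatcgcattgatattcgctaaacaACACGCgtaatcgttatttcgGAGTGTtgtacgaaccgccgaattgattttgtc
cox-10: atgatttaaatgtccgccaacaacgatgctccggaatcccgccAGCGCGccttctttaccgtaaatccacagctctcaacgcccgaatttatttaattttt
cox-6C: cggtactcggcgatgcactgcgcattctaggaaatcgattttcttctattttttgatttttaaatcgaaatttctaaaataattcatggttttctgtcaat
ndub-8: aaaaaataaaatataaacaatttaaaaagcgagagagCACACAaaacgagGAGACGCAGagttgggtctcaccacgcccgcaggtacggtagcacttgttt
The same 9 bases, GACACTCCG, stand in the windows of asb-2, nuo-1, nduv-2 and ndua-5, which belong to complex I and the ATP synthase. The window of sdhd-1 holds ACACGC and, on the other strand, ACACTC within a near match to the 9 bases that was not counted as the word, that of cox-10 holds AGCGCG, and that of cox-6C holds none of the words although its peak is among the strongest.

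Promoter peaks were found at 26 of the 71 members (36.6%), against 7.31% of all protein-coding genes. The members with a peak were spread over every complex except cytochrome c. Complex II had 3 of 5 genes, the ATP synthase 5 of 9, complex IV 3 of 7, complex I 11 of 33 and complex III 2 of 7, and of the complex IV assembly genes 2 of 8 had one. Neither of the 2 cytochrome c genes did. With so few genes in most complexes, differences between them were not tested. The share depended on how summits were placed: with a window of 250 bp upstream to 50 bp downstream 13 members had a peak (4.54% of all genes), and with each summit given only to its nearest start 16 did (5.81% of all genes). It stayed closer with a window of 1000 bp upstream to 200 bp downstream (30 members, 9.04% of all genes), any transcript start (28, 7.91%), the stronger 50% of IDR peaks (24, 4.77%) and a −log10 q of 2 or more (24, 4.5%).

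**Figure D1:**
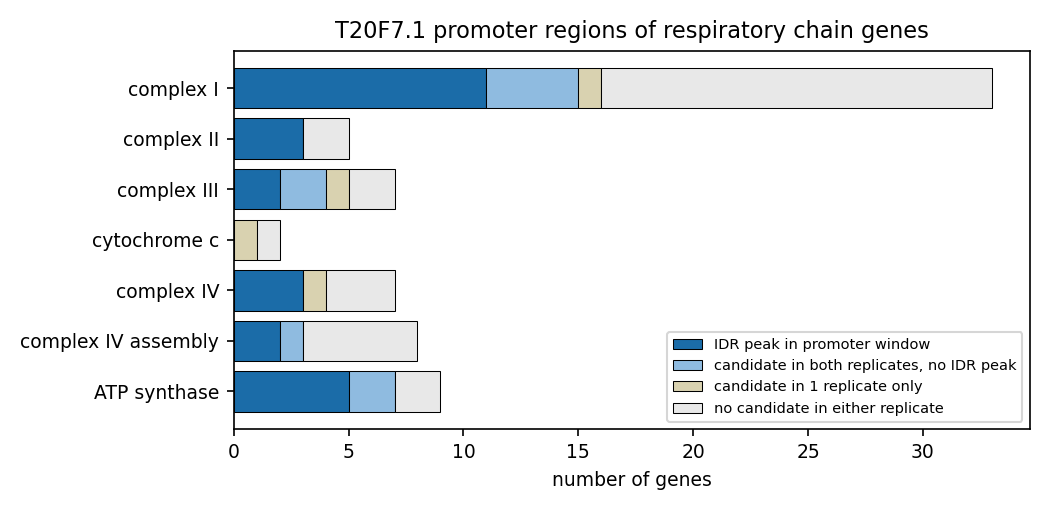
Number of member genes in each complex with an IDR peak in the promoter window, with a candidate region in both replicates but no IDR peak, with a candidate in 1 replicate only, or with none. Complex I holds the most genes with a peak (11 of 33), and cytochrome c holds none.

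The peaks that members had were strong ones. Their median signal value was 468 over 26 genes, against 189 over the 1460 genes with a promoter peak, and 18 of the 26 (69.2%) lay among the strongest 20% of IDR peaks, against 35.3% of all genes with a peak. Replicate values are given as a description, since the IDR list was made from both replicates. Replicate 2 over replicate 1 on the log2 scale had a median of 0.02 and an SD of 0.23. The range was -0.37 to 0.59, with replicate 2 higher at 13 of 26 genes. The replicate summits lay a median of 8 bp apart and within 50 bp of each other at 23 genes. Counts of members with a peak were 26 and 26 when the 2586 strongest regions of replicate 2 or replicate 1 were used alone (7.35% and 7.32% of all genes). The genes were not all the same: in replicate 2 alone nuo-2 fell outside (rank 4161). There gas-1 came in (rank 194), by a region that replicate 1 lacked.

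**Figure D2:**
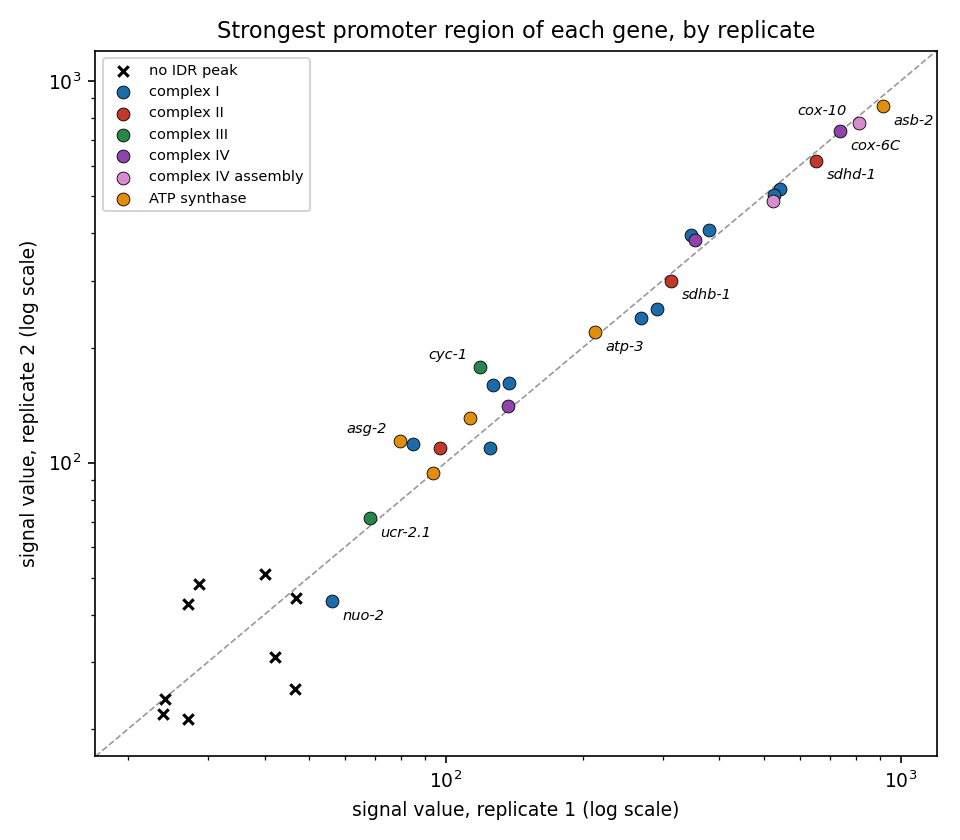
Signal value of the strongest candidate region in the promoter window of each gene in replicate 1 and replicate 2, on log axes, coloured by complex, with crosses for genes that have candidates in both replicates but no IDR peak, and a dashed line of equal values. Genes with an IDR peak follow the line from nuo-2 (56.2 and 43.4) to asb-2 (914 and 859), and the crosses lie at 51.0 or less in both replicates.

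Complex I takes electrons from NADH through a core of flavin and iron-sulphur subunits that is surrounded by many accessory subunits. Peaks were found at 3 of 8 core genes and 8 of 25 accessory genes. Among the core genes, nuo-1, which encodes the NADH-binding subunit, reached 528 in replicate 1, 503 in replicate 2 and 1025 in the IDR list. The gene of its flavoprotein partner, nduv-2, had 269 and 239, with 504 in the IDR list. The third, nuo-2, had 56.2 and 43.4, the lowest of all members with a peak, and its IDR value of 105 stood close to the limit of the list at 95.6. The summit of nuo-2 was also the only one of the 26 that lay within another annotated gene, in the 3′ UTR of T10E9.14. The others lay between protein-coding genes.

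Among the accessory genes, ndua-5 had the strongest peak, with 543 and 520 in the replicates and 1064 in the IDR list. The same called region held a second summit 473 bp upstream of its start, 200 bp beyond the first. This summit is listed as a peak of its own, with a signal value of 496 in the IDR list. The peak of ndub-7 gave 379 and 407, and that of nuo-6 gave 346 and 395. These 3 genes encode small subunits with no known redox centre. A double peak was also seen at lpd-5, the NDUFS4 homologue, in overlapping regions. Its stronger summit, 205 bp upstream, had 292 and 253, and its weaker one, 404 bp upstream, had 48.6 and 88.7. The peak of nduf-6 had 138 and 162, that of ndua-8 had 127 and 160, that of nduv-3 had 125 and 109 and that of ndub-8 had 84.9 and 112. The accessory genes thus spread from 201 to 1064 in the IDR list.

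The 22 complex I genes without a peak include the core genes nuo-5, nduf-7, ndus-8, gas-1 and nduf-2.2. At gas-1 the replicates differed: replicate 2 had a candidate region with a signal value of 376 (rank 194) whose summit lay 322 bp upstream of the start, on chromosome X at 15590719. Replicate 1 had no summit within 1229 bp of it, and the pooled list none within 1315 bp. The value in replicate 2 alone would place gas-1 among the stronger members, and it is without support in the other replicate. Such regions were not confined to this gene, since 92 of the 2586 strongest regions in each replicate had no pooled summit within 500 bp. No candidate was found in the window of nduf-2.2, whose nearest IDR summit lay at -875 bp.

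Complex II, which is also an enzyme of the citric acid cycle, had peaks at 3 of its 4 kinds of subunit. The peak of sdhd-1, which encodes a membrane anchor, had 653 and 618 in the replicates and 1255 in the IDR list. At sdhb-1, the gene of the iron-sulphur subunit, the values were 313 and 300. The peak at sdha-1, which encodes the flavoprotein, was weaker, at 97.1 and 109, and its replicate summits lay 181 bp apart, the widest gap among the members with a peak. A small nucleolar RNA gene, D2021.6, lay within 250 bp of that summit, the only such case among the 26. The other flavoprotein gene, sdha-2, and mev-1, the gene of the other membrane anchor, had no candidate region in either replicate.

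Complex III had peaks at 2 genes. The peak of cyc-1, which encodes cytochrome c1, had 119 and 178 in the replicates and 300 in the IDR list, the largest relative difference between replicates among members with a peak. That of ucr-2.1, a core protein gene, had 68.3 and 71.4. Its relatives differed from it: ucr-2.2 had no candidate, and ucr-2.3 had one in replicate 1 alone, at 37.2. The peak of ucr-2.1 had a −log10 q of 1.85 and left the set, as did nuo-2, when the authors' value had to reach 2. The Rieske iron-sulphur protein gene isp-1 stood just outside the list. Its replicate values were 46.8 and 44.2 and its pooled value 93.5, at rank 2701, against the limit of 95.6 and the 105 of nuo-2 just inside.

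Neither cytochrome c gene had an IDR peak in its window. At cyc-2.2 only replicate 1 had a candidate, at 18.8, and at cyc-2.1 neither had. An IDR summit lay 153 bp downstream of the annotated start of cyc-2.1, beyond the window, and counted for the gene when other transcript starts were used.

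Complex IV had 3 peaks, at cox-6C (737 and 739 in the replicates, 1479 in the IDR list), cox-5B (353 and 383) and cox-4 (137 and 141). All 3 encode structural subunits, and the replicates differed by little at each. In the window of the annotated gene start, no peak was found at cox-5A, cox-6A, cox-6B or cox-7C. With any transcript start, complex IV had 4 genes with a peak. The long annotated span of cox-6B held an IDR summit with a signal value of 607, outside the window of its annotated start. That summit lay at -810 bp from the start of nduc-2. Among the genes of complex IV assembly, cox-10 encodes the enzyme that farnesylates heme on the way to heme A, and its values were 811 and 775, with 1590 in the IDR list. At cox-16 they were 525 and 486. The other 6 genes, cox-11, cox-14, cox-15, cox-17, cox-18 and cox-19, had no IDR peak, although cox-17, the copper carrier, had candidates of 40.0 and 51.0.

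The ATP synthase held the strongest peak of all members, at asb-2, a gene for the b subunit of the stalk, with 914 and 859 in the replicates and 1769 in the IDR list (rank 32). Its paralogue asb-1, which is known for expression in the germline, had no candidate in either replicate. The g subunit genes also differed from each other. The peak of asg-2 had 79.3 and 114, whereas asg-1 had candidates of only 27.1 and 21.3 and no IDR peak. Of the catalytic head, the beta subunit gene atp-2 had 113 and 131 and the alpha subunit gene atp-1 had no candidate. In the stalk, atp-3, the gene of the oligomycin sensitivity protein, had 213 and 220, and atp-5 had 93.9 and 94.2. At atp-4 candidates of 42.1 and 31.0 were found, with no IDR peak. In all 4 sets of named relatives with a peak (asb, asg, sdha and ucr-2), a single gene had it. Neither gene had an IDR peak in the pairs cyc-2.1 and cyc-2.2 or gas-1 and nduf-2.2. The 4 sets were taken because they had a peak, and the count of single carriers was not tested.

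The 26 summits lay upstream of the gene start without exception. The median position was -246 bp (quartiles -278 and -160 bp), against -190 bp (-302 and -102 bp) over all 1460 genes with a peak, of which 93.8% had the summit upstream. The nearest to a start was that of cox-5B, 29 bp upstream, followed by atp-3 at 41 bp, and the farthest was that of cox-4 at 447 bp. Summits 200 bp or more upstream were found at 16 of 26 members (61.5%) and at 47.9% of all genes with a peak.

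**Figure D3:**
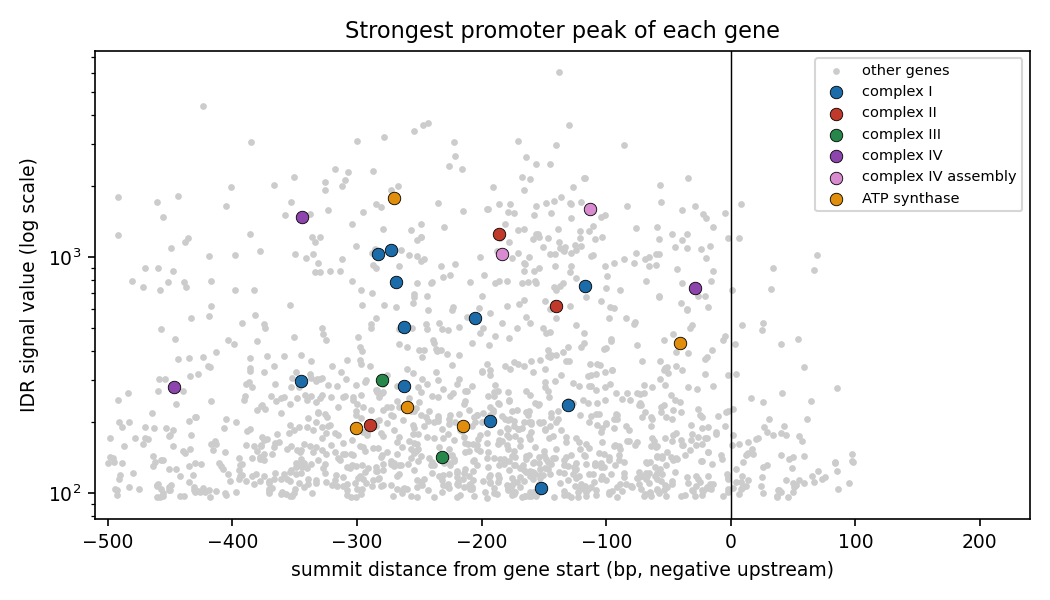
IDR signal value on a log axis against the distance of the summit from the gene start in bp, for the strongest promoter peak of each gene, with members coloured by complex and other genes in grey. All member summits lie left of the start, from 29 bp (cox-5B) to 447 bp (cox-4) upstream.

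Most of these summits also lay in the promoter window of a neighbouring gene. This held for 19 of 26 members (73.1%), against 40.3% of all genes with a peak, and at each of the 19 a gene on the opposite strand shared the window. The partners were of many kinds: rpl-36.A, a large ribosomal subunit protein gene, beside nuo-1, nars-1, an asparaginyl-tRNA synthetase gene, beside nduf-6, the spindle checkpoint gene mdf-2 beside nduv-3, and the synaptonemal complex gene syp-2 beside cox-16. Others were mce-1 beside ndub-7, tofu-5 beside nuo-6, cec-10 beside lpd-5, ilkp-1 beside sdhd-1, cup-15 beside sdhb-1, cup-14 beside ndub-8, grld-1 beside cox-6C, glr-6 beside asg-2, lmtr-3 beside atp-5 and nmat-1 beside ucr-2.1. At these genes the peak cannot be given to either partner alone. The remaining partners were Y38E10A.33 beside cox-10, F53F4.12 beside nduv-2, F27C1.2 beside atp-3, both rbc-2 and Y54F10AM.15 beside ndua-8, and both C34E10.10 and C34E10.12 beside atp-2. The members whose peak lay in no other window were asb-2, ndua-5, cox-5B, cyc-1, cox-4, sdha-1 and nuo-2.

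Members without a peak were often preceded closely by another gene on the same strand. In worms such genes are commonly transcribed together as operons, from a promoter ahead of the first gene. No operon annotation was used here, so genes were called downstream when the end of the nearest gene ahead lay on the same strand within 200 bp. Of the 14 members in this position 1 had a promoter peak of its own, nuo-2, whereas 25 of the other 57 had one (43.9%). Over all protein-coding genes the shares were 5.11% and 7.62%. Of the 13 downstream members with no peak, 7 had a peak at a gene ahead of them (53.8%), against 19.6% of such genes in all. The distance of 200 bp was chosen after the neighbours had been seen, and the difference was not tested.

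These 7 include several of the complex IV assembly genes. Ahead of cox-15, which acts in heme A synthesis, stands cchl-1, the gene of the lyase that attaches heme to cytochrome c, with replicate values of 354 and 373. Ahead of cox-17 stands ubc-20 (775 and 816), and ahead of cox-18 stands Y55F3AR.2 (612 and 586). The cytochrome c gene cyc-2.1 follows rpl-20, a ribosomal protein gene with 791 and 893. The remaining 3 were ucr-11 behind dad-1 (173 and 163), nuo-4 behind rnp-7 and syf-2 (312 and 302 at syf-2) and ndub-10 behind exos-3 (88.3 and 69.6). With 1 exception, exos-3, these upstream peaks had replicate values above 160. The peaks at cchl-1 and ubc-20 lay in no other window. Those at Y55F3AR.2, dad-1, exos-3, rpl-20 and syf-2 also lay in the windows of cct-8, tre-1, nlp-4, Y17G9B.5 and K04G7.1, in that order. These shared peaks cannot be given to either gene alone. At the other 6, which are ndub-2, nduc-2, nuo-5, cox-11, cox-19 and atp-4, no gene ahead had a peak in the window of its annotated start. For nduc-2, an IDR summit with a signal value of 607 lay at -810 bp, inside the annotated span of cox-6B, the gene ahead.

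In all, 45 members had no IDR peak. Candidates in both replicates were found at 9 of them (20%), against 12.6% of all genes without an IDR peak, with values of 23.9 to 46.8 in replicate 1 and 21.3 to 51.0 in replicate 2. In 32 members neither replicate had a candidate. The strongest of the 9 by the lower replicate value were isp-1, cox-17, atp-4, nduf-7 and nuo-3. At these 9 the log2 ratio of the replicates had an SD of 0.52, and summits lay within 50 bp of each other at 1 gene. Among members without an IDR peak the highest pooled value was 93.5, against the limit of the IDR list at 95.6. The 9 genes thus had weaker regions, so these values are not compared with those of genes with a peak. A pooled candidate was found at 10 of the 45, against 20.5% of all genes without an IDR peak. Counting all 71 members, 35 had candidates in both replicates, against 18.9% of all genes.

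By chromosome, members with a peak were 9 of 20 on I (9.83% of all genes there), 5 of 11 on II (7.16%), 2 of 16 on III (9.55%), 3 of 11 on IV (7.41%), 3 of 7 on V (5.55%) and 4 of 6 on X (5.79%). On III these were atp-2 and ndua-8. These counts were not tested.

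Sequence words were searched on both strands within 50 bp of the 28 member summits (26 genes, 2 of them with a pair of summits in the same or overlapping regions). The 10 6-base words had been chosen earlier as frequent at summits in these same data, so they are given as a description. At least 1 of them stood at 22 of 28 member summits (78.6%) and at 58% of all 1188 promoter peaks. Within 100 bp of the summit the counts were 23 of 28 (82.1%) and 71.3% of promoter peaks. The most frequent was ACACTC, at 9 of 28 (32.1%) against 16% of promoter peaks. Among promoter peaks in the strongest 20% of the IDR list the share was 35.3%. The members' share counts all 28 summits, weaker ones included, so these shares are not over like sets. The same holds for the strong-peak shares of the words that follow. All 9 member summits with ACACTC ranked 273 or better, within the strongest 20%. ACGCAG stood at 6 (21.4% against 11.2%), and ACGCGC at 5 (17.9% against 14.6%). GACGCA also stood at 5 (against 12% of promoter peaks), as did CGTCTC (against 10.4%). Among promoter peaks in the strongest 20% the shares were 14.3% for ACGCAG, 15.9% for GACGCA and 11.7% for CGTCTC. For ACGCGC that share was 24.7%, above the members' share. The others were near or below the level of all promoter peaks. AGAGAC stood at 3 summits (11.9% of promoter peaks), ACACGC at 3 (10.5%), AGCGCG at 2 (10.3%), CACACA at 2 (12.5%) and ACACAC at 1 (9.34%). Among promoter peaks in the strongest 20% their shares were 10.6%, 21.2%, 18.3%, 12.7% and 10.3%, in that order. GACGCA overlaps ACGCAG, and CGTCTC and AGAGAC overlap the longer word GAGACGCAG, so these counts are not separate. The members' median GC content in these windows was 43.1%, and that of all promoter peaks was 40.6%.

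The member windows showed a longer form of ACACTC. GACACTCCG, searched on both strands, was present at 6 of 28 member summits (21.4%), those of asb-2, nuo-1, ndub-7, nuo-6, nduv-2 and the upstream peak of ndua-5. It occurs in 0.956% of promoter windows of all genes and in 8 of 71 member windows (11.3%). Among promoter peaks in the strongest 20% of the IDR list 20.4% held it. The members' share counts all 28 summits, weaker ones included, so these shares are not over like sets. All 6 member summits with the word ranked 273 or better, within the strongest 20%. The word was picked from the member windows and extends a 6-base word chosen on all peaks of these data. Neither its frequency at members nor the values at other genes are therefore independent evidence. Among promoter peaks that are not at members it was present at 75 of 1160 (6.47%), and these peaks had a median signal value of 1006, against 162 for those without it. Of 183 genes other than members with the word in the promoter window, 120 had an IDR peak (65.6%), against 6.66% of the 19719 such genes without it. Among members, 7 of 8 with the word had a peak, and nuo-5, which stands 104 bp behind another gene, did not. Within 50 bp the word was absent from 22 member summits, among them the strong peaks of cox-10 and cox-6C. Within 100 bp it stood at 8 of 28 member summits (28.6%), against 7.41% of promoter peaks.

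**Figure D4:**
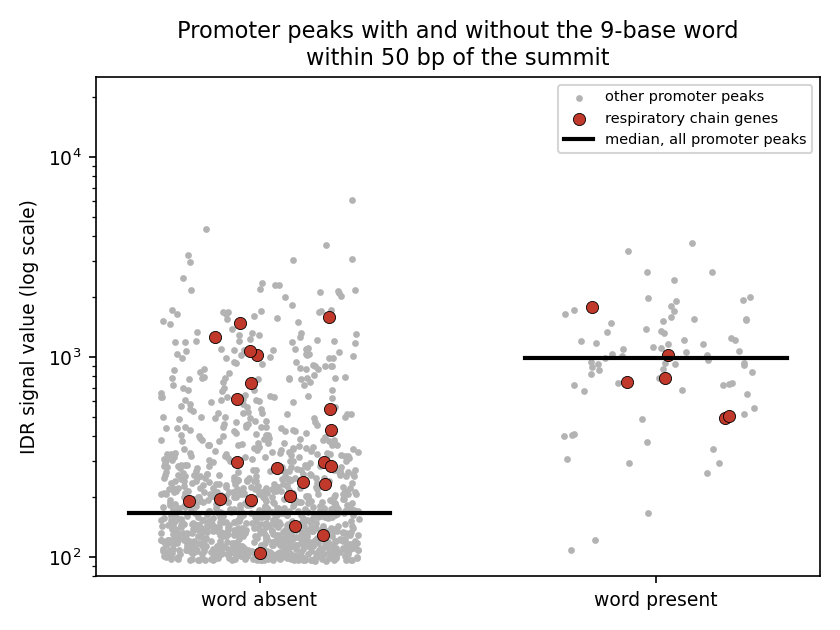
IDR signal value on a log axis of the 1188 promoter peaks without and with the 9-base word GACACTCCG within 50 bp of the summit, with peaks at members as large red points, other promoter peaks as small grey points and a bar at the median of all promoter peaks in each column. The 81 peaks with the word have a median of 991 and the 1107 without it 165, and member peaks with the word range from 496 to 1769.

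A second longer word, GAGACGCAG, was present at 3 member summits (asb-2, ndub-8 and the upstream peak of ndua-5) and at 4.38% of promoter peaks. It occurs in 4.6% of all promoter windows. Promoter peaks with it had a median signal value of 223, against 172 for those without it, a smaller difference than for GACACTCCG. The remaining word read off these windows, ATAAACAA, stood at 6 of 28 member summits (21.4%), at 4.21% of promoter peaks and in 7.31% of all promoter windows. Among promoter peaks in the strongest 20% it stood at 9.81%. Promoter peaks with it had a median signal value of 813, against 172 for those without it. Like the other longer words it was picked from these windows, so its frequency there is no evidence.

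Other genes of the pathway were taken from a list that covers ubiquinone synthesis, assembly factors, further ATP synthase subunits and inhibitors, ADP/ATP carriers and enzymes that feed ubiquinone. Of 38 names 36 matched the annotation, and 6 had an IDR promoter peak (16.7%), against 7.31% of all protein-coding genes. The median signal value of the 6 was 160. The strongest were cchl-1 and the ADP/ATP carrier gene ant-1.1, with 170 and 193 in the replicates. R53.4, an ATP synthase subunit gene, had 71.9 and 92.2, coq-5, which acts in ubiquinone synthesis, had 76.3 and 78.7, mai-2, an ATP synthase inhibitor gene, had 47.3 and 67.6, and coa-3, an assembly factor gene, had 44.4 and 51.9. The peaks of R53.4, coq-5 and coa-3 also lay in the windows of psf-1, ufm-1 and F35D11.4, so they cannot be given to either gene alone. Of 7 coq genes coq-5 alone had a peak, clk-1 had none, and of the 4 ADP/ATP carrier genes 1 had one. Of the 6, cchl-1 alone lay above the members' median of 468.

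At T20F7.1 itself no region of any of the 4 lists had its summit in the promoter window. The lists cannot show whether the tagged protein was expressed, so this value checks nothing about the labels.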

How the data were processed

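The data are 4 deposited peak lists on assembly ce11, per the text deposited beside them: the candidate regions of each replicate and of the pooled replicates, and the peaks retained by IDR. The signal value and the −log10 q-value of each region are the authors' and were used as deposited, only to rank and describe regions. The labels name a possible control experiment, which was not analysed here, and whether the lists were called against it is not stated. The sources used here do not give the peak caller, the aligner or the scale of the signal. Without counts the depth is unknown, and values carry no interval.

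Gene starts came from Ensembl release 115 (WBcel235), and regions on all 6 chromosomes ended within the reference lengths. The summit is the region start plus the deposited offset. Where several regions of a list lay in a window, the strongest was taken. Core subunits of complex I were listed by homology with the mammalian complex. No test was made, since there is 1 group without a control group, and no p-value is given. Members, complexes and word lists were chosen with earlier results of these data known. Named were all members with an IDR peak, the 5 strongest without one, relatives, partners of shared windows and extreme summits. Others were named after their values were seen. Window assignment was tested on simulated data. Python 3.11.15, numpy 2.4.6, pandas 2.3.3, scipy 1.17.1 and matplotlib 3.10.9 were used.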

Additional observations from a re-analysis of the deposited data

Results flagged for a closer look

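The pooled candidate list outside the IDR peaks was not used for the comparisons, and it held signal at members. Of the 45 members without an IDR promoter peak, 10 had a pooled candidate in the window (22.2%), with signal values from 36.3 to 93.5. Of all genes without an IDR promoter peak 20.5% had one, so the share at members was near that of other genes.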

How the results depend on the processing

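The number of members with a peak was 24 where −log10 q had to reach 2, 24 in the stronger 50% of IDR peaks, 30 with the wide window (1000 bp upstream to 200 bp downstream), 28 with any transcript start, and 26 to 26 without either replicate. It moved with the narrow window to 13 and with the nearest start alone to 16. In the narrow window complex I had 5, complex III 1, complex IV 1 and the ATP synthase 2, the median signal value was 551, the median distance -152 bp, and 16 members had candidates in both replicates. With the nearest start alone complex I had 6, complex II 1, complex III 1 and the assembly genes 1, and the median signal value was 492. With the stricter peaks and with the stronger 50% complex III had 1 and the median signal value was 528. With the wide window cytochrome c had 1 and the median was 366, and with any transcript start cytochrome c had 1. Complex IV had 4 in either of these settings. Without either replicate the median was 241 to 246, on the scale of a single replicate. Narrow windows hold fewer bases and the nearest-start rule gives up shared summits, by construction. No paired analysis was possible because there is 1 group. Depth is unknown, so absence of a region is not absence of binding.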
